A study of Mus musculus with 10 samples.

Results

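The 8 genes Nrip1, Gabpa, Bach1, Runx1, Sim2, Erg, Ets2 and Zbtb21 code for transcription factors or, in the case of Nrip1, for a cofactor of transcription factors, and all lie in the segment of mouse chromosome 16 that is duplicated in Dp1Tyb mice. They were taken by symbol from the 43629 genes of the hippocampal count table, matched by Ensembl ID to an annotation of GRCm38, and they are 8 of 250 listed genes in the segment. RNA was sequenced from the whole hippocampus of 5 Dp1Tyb mice, genotype Dp(16Lipi-Zbtb21)1TybEmcf, and 5 wild-type (WT) littermates. All 10 were males, 18 weeks old by their labels and slightly older by the methods, and each mouse gave 1 library. The labels give the strain as C57BL/6J.129P2, and the colony had been backcrossed to C57BL/6JNimr. The duplication adds an extra copy of the segment from Lipi to Zbtb21 in every cell of the animal, so each of the 8 genes is present in 3 copies. Total counts ranged from 18227684 to 43692270 per library. Because whole tissue was used, fewer cells of a type and less RNA per cell cannot be told apart.

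A transcription factor binds short DNA motifs and raises or lowers the transcription of nearby genes, usually together with partner proteins, so the level of a factor is read here beside that of its partners and known targets. Gabpa, Ets2 and Erg belong to the ETS family, which shares a winged helix-turn-helix DNA-binding domain and recognises a GGAA core. Bach1 is a leucine zipper repressor that is released from DNA by haem, Runx1 is a Runt domain factor of blood cells and microglia, and Sim2 is a basic helix-loop-helix PAS factor. Nrip1 (RIP140) binds ligand-activated nuclear receptors and mostly represses their targets, and Zbtb21 is a zinc finger protein with a BTB domain. In the brain, Erg is known from the endothelial cells of blood vessels.

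Promoter sequences are shown for 3 of the genes because their expression differed in kind: Bach1 rose by about the amount of the segment as a whole, Zbtb21 rose by more, and Erg did not rise. RefSeq windows (GRCm38.p6) of 300 bases, from 250 before to 50 after a transcription start, were found for 7 of the 8 genes and not for Sim2. The stretches below are the parts of the windows before the annotated exons, 5′ to 3′ on the strand of the gene, at chr16:87698704-87698944 for Bach1 (plus strand), chr16:97962623-97962872 for Zbtb21 (minus strand) and chr16:95586594-95586843 for the outermost of 3 Erg windows (minus strand). Capitals mark matches to the searched motifs, which were CCGGAAG (ETS), TGAGTCA (the core bound by AP-1 and by Bach and Maf proteins) and TGTGGT (RUNX), on both strands.
Bach1: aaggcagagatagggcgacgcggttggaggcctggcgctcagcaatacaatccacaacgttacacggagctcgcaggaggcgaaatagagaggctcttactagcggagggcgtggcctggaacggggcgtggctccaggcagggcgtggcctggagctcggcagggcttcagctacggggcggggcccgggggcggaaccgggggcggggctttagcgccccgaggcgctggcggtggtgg
Zbtb21: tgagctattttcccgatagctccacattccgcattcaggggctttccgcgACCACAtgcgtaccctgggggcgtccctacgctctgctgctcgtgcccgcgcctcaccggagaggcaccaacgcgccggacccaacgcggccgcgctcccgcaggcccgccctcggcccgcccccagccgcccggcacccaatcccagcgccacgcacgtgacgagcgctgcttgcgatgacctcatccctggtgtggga
Erg: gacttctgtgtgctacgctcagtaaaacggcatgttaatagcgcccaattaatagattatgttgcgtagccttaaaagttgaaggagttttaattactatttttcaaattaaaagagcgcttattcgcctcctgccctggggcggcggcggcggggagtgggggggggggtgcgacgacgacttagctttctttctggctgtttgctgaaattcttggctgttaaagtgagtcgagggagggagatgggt

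The GC content of the whole window was 69.7% for Bach1, 67.3% for Zbtb21 and 50.3% for this Erg window, beside a median of 52.7% over all 32851 windows. The other Erg windows had 37.3% and 46.0%. Among the other genes, Ets2 had 71.7% and Gabpa 59.3%. The 2 windows of Nrip1 had 52.7% and 73.3%, and those of Runx1 45% and 69%. A relation of GC content to the change in expression was not tested. Matches were few. A RUNX match lay in the Zbtb21 window and a pair of them in 1 of 2 Runx1 windows, and 16.8% of all windows held this motif. The TGAGTCA core, held by 5.20% of all windows, was not found in the windows of the 7 genes. Of all windows 8.86% held an ETS match, and the windows of the 7 genes are too few for a comparison with this share. Their only ETS match was in the window of Gabpa, 93 bases before its RefSeq start. It is shown in capitals with its flanks, at chr16:84835020-84835048 on the plus strand, inside an annotated exon.
Gabpa: gagggtaagtgCTTCCGGgtccctcagct

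Of the 8 genes, 7 passed the filter on low counts and were tested, and 5 of these were higher in Dp1Tyb hippocampus at an adjusted p under 0.05 (edgeR quasi-likelihood test, 5 mice per genotype). These were Nrip1, Gabpa, Bach1, Ets2 and Zbtb21. Over all 17237 tested genes 1.11% were called in either direction and 0.87% were called higher, and outside the segment 0.718% were called. Among the 114 tested genes of the segment 59.6% were called higher, so that 5 of 7 is near the share of duplicated genes as a whole. Values of the genotypes did not overlap for the same 5 genes. No overlap was found for 3.68% of all tested genes, for 2.56% with Dp1Tyb higher, and for 62.3% of the tested genes of the segment with Dp1Tyb higher. The other tested genes were Runx1, which was barely detected, and Erg, which was clearly detected and had the same mean in both genotypes. Sim2 was too low to be tested.

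**Figure D1:**
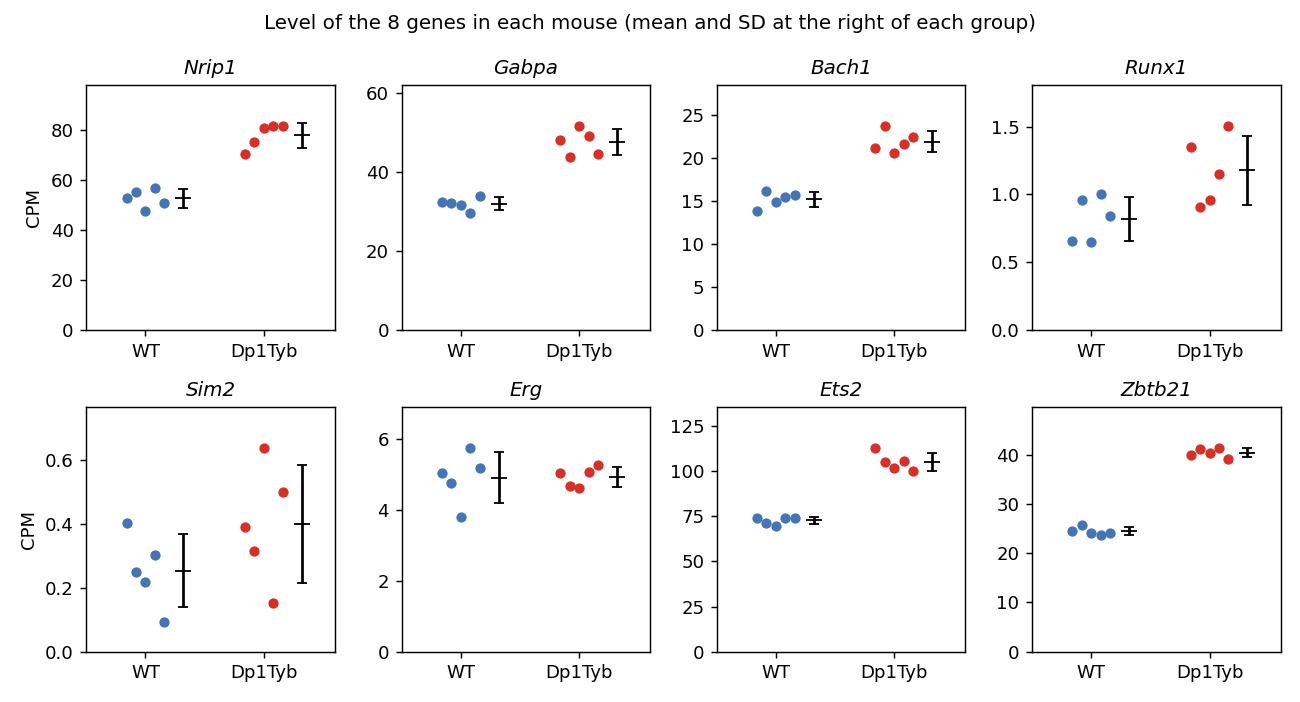
Level of each gene in each of the 5 WT (blue) and 5 Dp1Tyb (red) mice, in CPM (counts scaled to the same library total) on linear axes that start at 0, with the mean and SD of each group in black. Nrip1, Gabpa, Bach1, Ets2 and Zbtb21 separate the genotypes, Erg lies near 4.9 CPM in both, and Runx1 and Sim2 overlap at low levels.

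Levels were compared between genes per kilobase of exon (RPKM). In WT hippocampus Ets2 was the highest at 12.6 ± 0.344 RPKM (SD, n = 5), above 81.9% of the tested genes by its mean over all mice. Gabpa followed at 5.63 ± 0.279, Nrip1 at 4.58 ± 0.318, Zbtb21 at 3.86 ± 0.128, Bach1 at 2.47 ± 0.144 and Erg at 1.41 ± 0.207 RPKM. The WT ranges of neighbours in this order did not overlap down to Erg. Far below lay Runx1 at 0.0682 ± 0.0136 and Sim2 at 0.0600 ± 0.0271 RPKM, whose ranges overlapped. Of the tested genes, only 0.608% were lower than Runx1. The order was the same in Dp1Tyb, except that Nrip1 (6.14 to 7.12 RPKM) and Zbtb21 (6.19 to 6.54 RPKM) could no longer be separated by their ranges.

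Among the ETS factors, Ets2 (ENSMUSG00000022895, positions 95702075 to 95721051, plus strand), a target of Ras and MAP kinase signalling, was measured with the smallest standard error of the 7 tested genes. The WT mice, replicates 1 to 5, had 73.8, 71.5, 69.8, 74.2 and 74.3 CPM. In Dp1Tyb the values were 113, 105, 102, 106 and 100.1 CPM, so all 5 lay well above the WT range. The log2 fold change was 0.53 ± 0.040 SE (edgeR, adjusted p = 6.02e-06), a 1.45-fold increase with a 95% interval of 1.36 to 1.54.

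Gabpa (ENSMUSG00000008976, positions 84834925 to 84863779, plus strand) is the DNA-binding subunit of GABP, also called nuclear respiratory factor 2, an activator of nuclear genes for mitochondrial proteins. Its WT values were 32.5, 32.2, 31.7, 29.6 and 34.0 CPM, and its Dp1Tyb values 48.1, 43.9, 51.7, 49.2 and 44.6 CPM. The genotypes were again separate. The increase was 1.49-fold (95% interval 1.37 to 1.61), which is 0.57 ± 0.055 SE in log2 units, with an adjusted p of 5.46e-05 in edgeR. Gabpa and Atp5j, a subunit gene of the mitochondrial ATP synthase, lie on opposite strands and overlap at their 5′ ends, each running across the start of the other, with starts 700 bases apart. Their annotated exons share 397 bases. Atp5j rose as well (log2 fold change 0.50 ± 0.074 SE, adjusted p = 0.00329). The strand setting of the counting is not given in the sources used here, so reads in the shared bases cannot be assigned with certainty.

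Erg (ENSMUSG00000040732, positions 95359169 to 95586593, minus strand), the ETS factor of endothelial cells, was the exception. WT mice had 5.04, 4.74, 3.80, 5.75 and 5.18 CPM, from 70 to 190 counts. Dp1Tyb mice had 5.04, 4.65, 4.60, 5.06 and 5.25 CPM, from 115 to 220 counts. Every Dp1Tyb value lay inside the WT range. The log2 fold change was −0.002 ± 0.11 SE (edgeR, adjusted p = 0.995), a fold of 0.998 with a 95% interval of 0.848 to 1.17. A 1.5-fold change lay outside this interval. Erg and Ets2 are neighbours whose starts are 115482 bases apart, with no other tested gene between them, and Erg has the same extra copy as Ets2. Of the other 113 tested genes of the segment, 10 had a lower fold change than Erg.

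**Figure D2:**
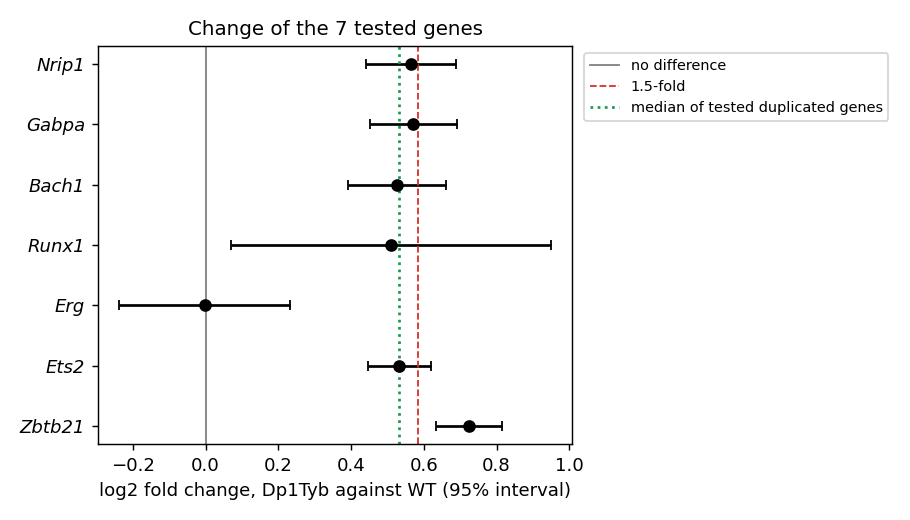
Log2 fold change of the 7 tested genes, Dp1Tyb against WT, with 95% intervals from the edgeR fit, in order along the chromosome. The intervals of Nrip1, Gabpa, Bach1, Runx1 and Ets2 hold the 1.5-fold line (dashed) and the segment median (dotted), that of Erg spans 0 and ends below both, and that of Zbtb21 lies above both.

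Bach1 (ENSMUSG00000025612, positions 87698945 to 87733346, plus strand) represses Hmox1 and other genes of the antioxidant response. In WT it had 13.9, 16.2, 14.9, 15.5 and 15.7 CPM. In Dp1Tyb it had 21.2, 23.8, 20.6, 21.7 and 22.5 CPM. There was no overlap, and the log2 fold change was 0.53 ± 0.062 SE (edgeR, adjusted p = 0.000397), or 1.44-fold (95% interval 1.31 to 1.58).

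Nrip1 (ENSMUSG00000048490, positions 76287400 to 76373827, minus strand) lies near the proximal end, 0.747 Mb from the start of the segment. Its WT values were 52.8, 55.0, 47.4, 56.6 and 50.7 CPM. Its Dp1Tyb values were 70.3, 75.2, 80.7, 81.6 and 81.3 CPM. All Dp1Tyb mice exceeded the highest WT mouse. Between the genotypes the increase was 1.48-fold (95% interval 1.36 to 1.61), which is 0.56 ± 0.057 SE in log2 units, with an adjusted p of 8.16e-05 in edgeR.

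Zbtb21 (ENSMUSG00000046962, positions 97943357 to 97962622, minus strand), the last gene of the segment, showed the largest increase of the 7 tested genes. WT mice had 24.6, 25.8, 24.0, 23.7 and 24.1 CPM, and Dp1Tyb mice had 40.0, 41.1, 40.4, 41.4 and 39.2 CPM, 2 narrow groups far apart. The log2 fold change was 0.73 ± 0.042 SE (edgeR, adjusted p = 7.47e-07), or 1.65-fold, and the 95% interval of 1.55 to 1.76 lay above 1.5-fold. Zbtb21 and C2cd2 start 24 bases apart on the same strand and share 86 of the 6335 exon bases of Zbtb21, and C2cd2 rose from 14.5 ± 1.00 to 25.4 ± 1.67 CPM (SD, n = 5; log2 fold change 0.81 ± 0.066 SE, adjusted p = 1.25e-05). How reads in the shared bases were assigned was not tested.

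Runx1 (ENSMUSG00000022952, positions 92601466 to 92826149, minus strand) had only 12 to 33 counts per WT library and 24 to 59 per Dp1Tyb library. The WT values were 0.653, 0.957, 0.651, 0.999 and 0.839 CPM. The Dp1Tyb values were 1.35, 0.910, 0.960, 1.15 and 1.51 CPM, of which 3 lay above all WT mice and 2 within their range. The log2 fold change was 0.51 ± 0.20 SE, near that of the called genes, but with an adjusted p of 0.285 (edgeR, unadjusted 0.0263) and a 95% interval of 1.05 to 1.93-fold. At this depth an increase of the size seen in Ets2 could not be told from none after adjustment.

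Sim2 (ENSMUSG00000062713, positions 94084931 to 94127032, plus strand) had 13, 6, 4, 10 and 2 counts in the WT libraries and 17, 9, 16, 5 and 11 in the Dp1Tyb libraries. These are 0.253 ± 0.114 and 0.400 ± 0.185 CPM (SD, n = 5), with wide overlap. Summed over the mice, 35 WT and 58 Dp1Tyb counts gave a ratio of 1.39 per sequenced read, with an exact 95% interval of 0.900 to 2.18 that covers counting error only. By an exact permutation test of the CPM values (two-sided, n = 5 per genotype) p was 0.190. A change of Sim2 was therefore not detectable at this depth.

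Each tested gene was then compared with the duplicated genes around it. The log2 level of each tested segment gene was first centred on its mean over the 10 mice. Within each mouse, the median centred level of the other 113 tested segment genes was subtracted from the log2 level of the gene. Of the 7 comparisons, 2 had an exact permutation p under 0.05, and these p-values were not adjusted over the 7. Erg was lower relative to the segment in all 5 Dp1Tyb mice than in any WT mouse, by 0.52 on the log2 scale (Dp1Tyb minus WT −0.52, exact two-sided permutation test, n = 5 per genotype, p = 0.00794, the smallest this design allows). Zbtb21 was higher relative to the segment in all 5, by 0.19 (exact permutation p = 0.00794, n = 5). Of the other 113 tested genes, 97 had a lower fold change than Zbtb21 and the rest a higher one. Nrip1 (0.031), Gabpa (0.031), Bach1 (−0.014), Ets2 (−0.0055) and Runx1 (−0.057) had exact permutation p-values between 0.587 and 0.944, and the genotypes overlapped for these 5. The median fold change of the 114 tested genes was 1.45. The genes with the nearest starts varied: Gm9843, a pseudogene beside Nrip1, stood at 0.018 ± 0.16 SE in log2 fold change (edgeR, adjusted p = 0.971), and Cldn14 beside Sim2 at 0.36 ± 0.24 SE (edgeR, adjusted p = 0.561). The nearest to Bach1 (Gm23994), Runx1 (Gm26626) and Ets2 (Gm37259) had 0, 3 and 1 counts over all mice. Without any single mouse the Erg difference ranged from −0.61 to −0.47 and that of Zbtb21 from 0.17 to 0.21.

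**Figure D3:**
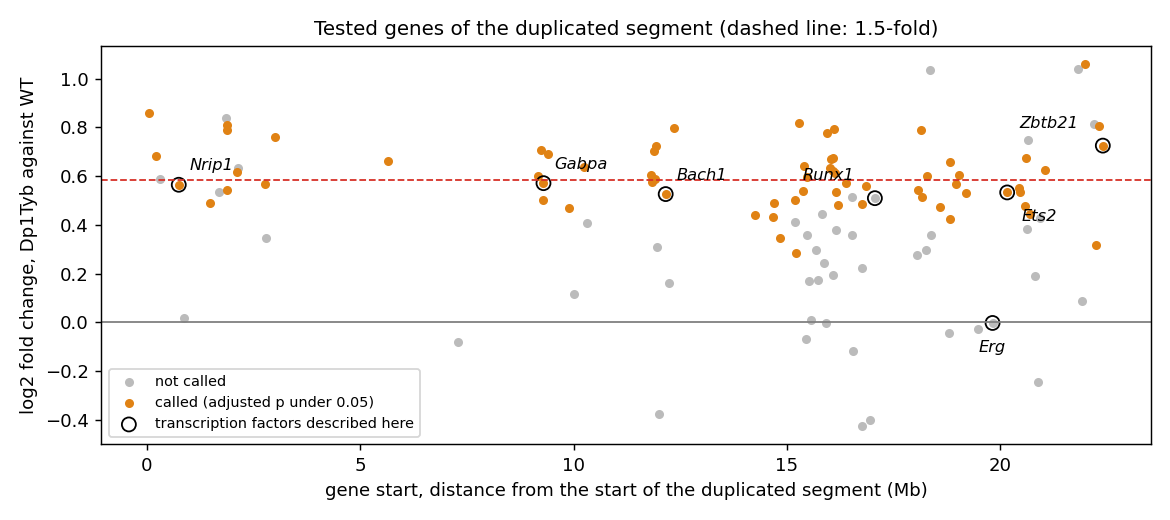
Log2 fold change of the 114 tested genes of the duplicated segment against the distance of their start from the start of the segment in Mb, with called genes in orange, others in grey, and the 7 tested transcription factors circled. Nrip1, Gabpa, Bach1 and Ets2 lie near the dashed 1.5-fold line, Zbtb21 lies above it at the far end, and Erg lies at 0 beside Ets2.

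For Erg, known from endothelium, the levels of other endothelial genes were examined. Of 10 endothelial markers, all tested, 2 had a fold change above 0 and 8 below, with a median log2 fold change of −0.10 beside −0.0041 over all tested genes, and none was called. The 3 with the smallest p-values were Flt1 (−0.13 ± 0.046 SE, adjusted p = 0.244), Cldn5 (−0.20 ± 0.077 SE, adjusted p = 0.275) and Slco1a4 (−0.087 ± 0.035 SE, adjusted p = 0.292; all edgeR). The mean log2 CPM of the list was 4.78 ± 0.044 in WT and 4.69 ± 0.055 in Dp1Tyb (SD, n = 5), with 4 Dp1Tyb mice below all WT mice (exact permutation p = 0.0159, adjusted over 9 marker lists 0.0714). Relative to this list, Erg differed by 0.11 on the log2 scale between Dp1Tyb and WT, and the genotypes overlapped (exact permutation p = 0.27, adjusted over 7 ratios 0.27). This difference was 0.035 without WT replicate 3. The part of endothelial content in the Erg value was not tested.

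Between mice of the same genotype, Erg varied with the endothelial list to a degree that did not pass correction. After removal of the genotype means, Pearson's r over 10 mice was 0.59 (exact permutation within genotypes, p = 0.0499, adjusted 0.131) and Spearman's rho 0.64 (exact permutation p = 0.0656, adjusted 0.131). Without the 2 mice farthest from the median of the list, Dp1Tyb replicates 4 and 5, r was 0.85. Of 11 genes described as Erg targets in endothelium, 2 of which are also among the markers, 4 were above and 7 below 0 with a median log2 fold change of −0.092, and none was called. Apln, a secreted peptide of growing vessels, had the smallest p of these (0.26 ± 0.076 SE, adjusted p = 0.139), before Cldn5, given above, and Egfl7 (−0.15 ± 0.093 SE, adjusted p = 0.483; all edgeR).

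The obligate partners of Gabpa moved differently from Gabpa itself. Gabpa binds DNA, and the beta subunits, coded by Gabpb1 and Gabpb2, carry the activation domain. Neither lies in the duplicated segment. Gabpb1 had 19.5, 19.3, 17.9, 16.5 and 16.5 CPM in WT and 17.3, 19.0, 17.5, 17.7 and 17.6 CPM in Dp1Tyb, with full overlap (log2 fold change −0.011 ± 0.065 SE, edgeR adjusted p = 0.955). Gabpb2 fell from 52.5, 54.0, 50.9, 48.0 and 47.2 CPM in WT to 39.8, 39.7, 41.7, 44.3 and 40.1 CPM in Dp1Tyb. All 5 Dp1Tyb mice lay below all WT mice, and the log2 fold change was −0.30 ± 0.050 SE (edgeR, adjusted p = 0.00967). Of all tested genes, 0.238% were called lower. The Gabpb2 call held in all 17 alternative fits, with log2 fold changes from −0.33 to −0.28. The ratio of Gabpa to Gabpb1 within a mouse rose by 0.58 on the log2 scale (exact permutation p = 0.00794, adjusted 0.0139, n = 5 per genotype). Because Gabpa was called higher and Gabpb1 hardly moved, this ratio restates the Gabpa increase and is no separate finding. The ratios of Bach1, Ets2, Nrip1 and Zbtb21 to a gene outside the segment, given below, likewise largely restate the increase of the duplicated gene.

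**Figure D4:**
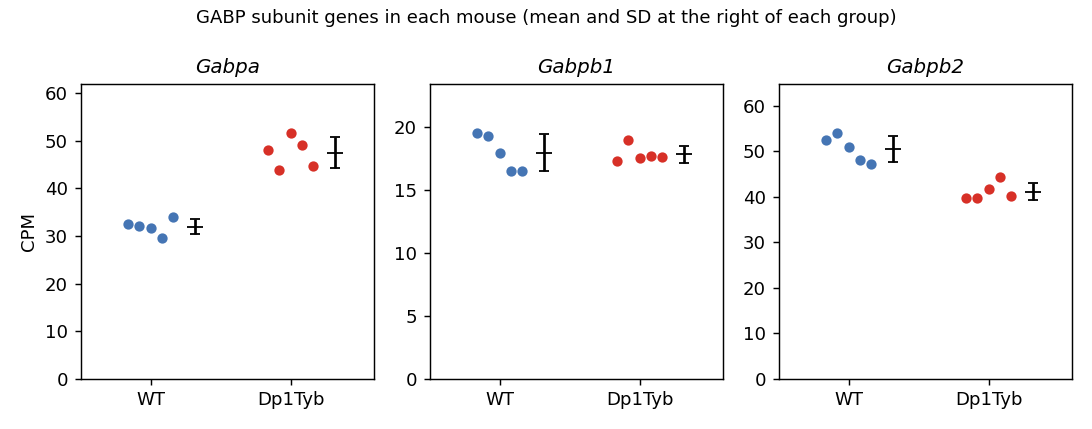
CPM of the GABP subunit genes in each WT (blue) and Dp1Tyb (red) mouse, on linear axes that start at 0, with mean and SD in black. Gabpa is higher in all 5 Dp1Tyb mice, Gabpb1 overlaps, and Gabpb2 is lower in all 5.

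The remaining 5 genes of the GABP list, Hcfc1, Nrf1, Ppargc1a, Ppargc1b and Pprc1, did not pass the test; Hcfc1 and Nrf1 had the smallest p-values (−0.089 ± 0.047 SE with adjusted p = 0.413, and 0.055 ± 0.065 SE with adjusted p = 0.730, edgeR). Of 13 textbook GABP target genes for mitochondrial proteins, 5 had fold changes above 0 and 8 below, the median was −0.030, and none was called. Tomm20 and Tomm70a, receptors of the mitochondrial import machinery, were above all WT mice in all 5 Dp1Tyb mice, but missed the threshold. Of all tested genes 2.56% were higher in Dp1Tyb without overlap. The log2 fold change of Tomm20 was 0.15 ± 0.035 SE (edgeR, adjusted p = 0.0582), and Tomm70a stood at 0.14 ± 0.035 SE (edgeR, adjusted p = 0.0848). DESeq2 and the fit without Dp1Tyb replicate 5 called Tomm20, at log2 fold changes of 0.15 and 0.17. Tfam, which packages mitochondrial DNA, had 0.11 ± 0.045 SE (edgeR, adjusted p = 0.288). The target list ran from Cox5b (−0.28 ± 0.14 SE, adjusted p = 0.372) to Tfb1m (0.29 ± 0.13 SE, adjusted p = 0.324; edgeR for each). Of the 10 target genes with a promoter window, 4 held the ETS motif (Tfam, Sdhd, Tomm70a and Surf1), beside 9.93% of all genes. These genes were listed as known GABP targets, so this share is no result of the expression data.

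For Bach1 the list held its paralog Bach2, the small Maf partners with which it binds DNA, and the activators of the same sites with their inhibitor Keap1. None of the 8 tested genes was called, and their median log2 fold change was 0.054. Keap1 (−0.16 ± 0.063 SE, adjusted p = 0.283), Maff (0.29 ± 0.21 SE, adjusted p = 0.552) and Nfe2l3 (0.14 ± 0.13 SE, adjusted p = 0.636; all edgeR) had the smallest p-values. Nfe2l2 (NRF2), the main activator that competes with Bach1, stood at 17.9 ± 1.59 (WT) and 17.9 ± 2.70 (Dp1Tyb) CPM, SD over 5 mice each. The Bach1 to Nfe2l2 ratio accordingly rose by 0.53 on the log2 scale, with 4 of 5 Dp1Tyb mice above all WT mice (exact permutation p = 0.0159, adjusted 0.0185).

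The 15 target genes of the antioxidant response, on which Bach1 and Nfe2l2 act in opposite directions, had a median log2 fold change of 0.018, with 9 above and 6 below 0. None was called. Hmox1, coding for haem oxygenase, stood at 5.29 ± 0.621 CPM in WT and 5.31 ± 0.798 CPM in Dp1Tyb. The smallest p-values were those of Srxn1 (0.11 ± 0.050 SE, adjusted p = 0.337), G6pdx (0.12 ± 0.056 SE, adjusted p = 0.343) and Me1 (0.10 ± 0.049 SE, adjusted p = 0.362; all edgeR).

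The wider ETS family outside the segment showed no called gene among 17 tested of 23, with 6 above and 11 below 0. Elk4 (−0.10 ± 0.054 SE, adjusted p = 0.421), Ets1 (−0.14 ± 0.099 SE, adjusted p = 0.537) and Etv1 (0.062 ± 0.057 SE, adjusted p = 0.642; all edgeR) led the list. Ets1 is the closest relative of Ets2, and the Ets2 to Ets1 ratio rose by 0.67 on the log2 scale (exact permutation p = 0.00794, adjusted 0.0139), with all 5 Dp1Tyb mice above all WT mice. Fli1, the closest relative of Erg, stood at 3.14 ± 0.105 (WT) and 2.91 ± 0.686 (Dp1Tyb) CPM, SD over 5 mice each, with an adjusted p of 0.764 in edgeR. Ets1 and Fli1 were named here for their kinship with Ets2 and Erg.

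Runx1 works as a dimer with Cbfb. Among its 6 paralogs and partners none was called and 5 lay below 0. Cbfa2t3, a corepressor of the ETO family, was lower in 4 of 5 Dp1Tyb mice than in any WT mouse but missed the threshold (−0.35 ± 0.088 SE, adjusted p = 0.0776), while Cbfa2t2 (0.071 ± 0.039 SE, adjusted p = 0.431) and Cbfb (−0.075 ± 0.069 SE, adjusted p = 0.641; all edgeR) were far from it. Of 10 microglial markers, 2 were above and 8 below 0, and their mean log2 CPM was 4.71 ± 0.106 in WT and 4.59 ± 0.169 in Dp1Tyb (SD, n = 5; exact permutation p = 0.262, adjusted 0.393). Among those with the smallest p-values were Tmem119 and C1qa, with log2 fold changes of −0.22 and −0.17 and adjusted p of 0.293 and 0.463 (edgeR). The 7 other transcription factors of microglia all lay below 0, at a median of −0.084, and none was called, with Cebpa (−0.25 ± 0.11 SE, adjusted p = 0.327) and Sall1 (−0.076 ± 0.070 SE, adjusted p = 0.646; edgeR for each) in front. Relative to the microglial list, Runx1 was higher in Dp1Tyb by 0.60 on the log2 scale, with 4 of 5 Dp1Tyb mice above all WT mice (exact permutation p = 0.0159, adjusted 0.0185). The ratio rests on the same low Runx1 counts as the fold change of 0.51 ± 0.20 SE (edgeR, adjusted p = 0.285). It is therefore no separate evidence for a change of Runx1. No correlation of Runx1 with the microglial list between mice of a genotype was detectable (r = 0.22, exact permutation within genotypes p = 0.593, adjusted 0.791; rho = 0.067, p = 0.871, adjusted 0.871; r without WT replicate 1 and Dp1Tyb replicate 3 was 0.28).

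**Figure D5:**
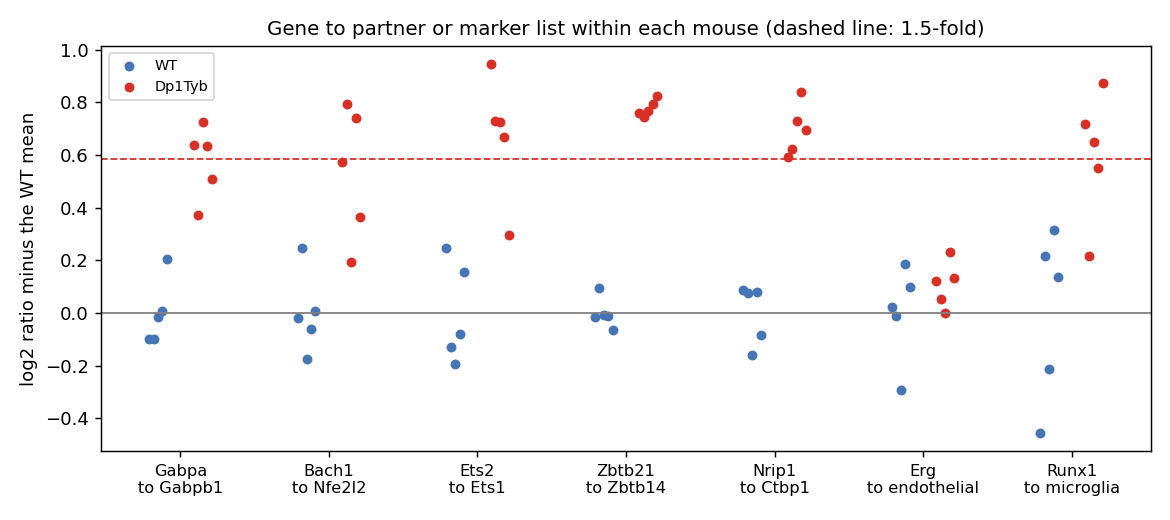
Log2 ratio of each gene to its partner, relative or marker list within a mouse, minus the WT mean of that ratio, for 5 WT (blue) and 5 Dp1Tyb (red) mice. Ratios to Gabpb1, Ets1, Zbtb14 and Ctbp1 separate the genotypes, those of Bach1 and Runx1 overlap in 1 Dp1Tyb mouse each, and that of Erg to the endothelial list overlaps in 4 of 5.

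Nrip1 can act on many nuclear receptors and recruits the corepressors Ctbp1 and Ctbp2. Of 24 such genes 23 were tested, 11 were above and 12 below 0, and none was called, although 7 had an unadjusted p under 0.05, beside 2477 of all 17237 tested genes. The smallest p-values were those of Ctbp1 (−0.13 ± 0.037 SE, adjusted p = 0.128) and the oestrogen receptor gene Esr1 (0.49 ± 0.16 SE, adjusted p = 0.199; edgeR for each). The mean log2 ratio of Nrip1 to Ctbp1 rose by 0.70, and it was higher in all 5 Dp1Tyb mice than in any WT mouse (exact permutation p = 0.00794, adjusted 0.0139).

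The partners of Sim2 were well expressed although Sim2 was not. Arnt2, with which Sim proteins dimerise in neurons, stood at 321 ± 22.4 (WT) and 340 ± 16.0 (Dp1Tyb) CPM, SD over 5 mice each (log2 fold change 0.081 ± 0.050 SE, edgeR adjusted p = 0.480). The paralog Sim1 was also too low to be tested. Of the 14 tested genes of the bHLH-PAS family 10 were above and 4 below 0 and none was called. Npas1, a repressor of interneurons, was higher in all 5 Dp1Tyb mice than in any WT mouse and missed the threshold (0.23 ± 0.072 SE, adjusted p = 0.163), followed by Npas2 (−0.15 ± 0.078 SE, adjusted p = 0.392) and Arntl2 (0.12 ± 0.067 SE, adjusted p = 0.436; all edgeR).

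Of 41 other genes with a symbol that starts with Zbtb and a digit, 40 were tested and none was called, 15 above and 25 below 0, at a median of −0.026. The opposite-strand genes Zbtb8os (log2 fold change −0.0081) and Zbtb11os1 (−0.015), which are not members of the family, are in these counts through their symbols. The smallest p-values belonged to Zbtb39 (−0.19 ± 0.063 SE, adjusted p = 0.193), Zbtb45 (−0.15 ± 0.065 SE, adjusted p = 0.329) and Zbtb8b (0.28 ± 0.14 SE, adjusted p = 0.370; all edgeR). Zbtb14, a reported binding partner of Zbtb21, stood at 29.0 ± 0.632 (WT) and 28.0 ± 1.04 (Dp1Tyb) CPM, SD over 5 mice each. The Zbtb21 to Zbtb14 ratio rose by 0.78 on the log2 scale, from −0.25 ± 0.058 to 0.53 ± 0.031 (exact permutation p = 0.00794, adjusted 0.0139).

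The cellular make-up of the dissected tissue was compared with 9 marker lists, and none of the lists passed correction at 0.05. The smallest p of the exact permutation test, 0.00794, becomes 0.0714 when only 1 of the 9 lists reaches it. A single differing list could therefore not pass, and the result does not show an equal make-up. Neuronal markers of the hippocampus were all detected, among them Slc17a7, Neurod6 and Prox1, and their list was higher in all 5 Dp1Tyb mice by 0.093 (exact permutation p = 0.00794, adjusted 0.0714). Of its 8 genes 6 were above and 2 below 0, the latter being Prox1 (−0.18 ± 0.057 SE, edgeR adjusted p = 0.184) and Rbfox3 (−0.045 ± 0.036 SE, edgeR adjusted p = 0.591). Gad2 of this list was called (0.34 ± 0.074 SE, edgeR adjusted p = 0.0410), and its call was lost in 7 of 10 fits that left out a mouse, those without WT replicate 1, 2, 4 or 5 or Dp1Tyb replicate 2, 3 or 4 (log2 fold changes from 0.28 to 0.36). The astrocyte list was higher by 0.088 (exact permutation p = 0.0317, adjusted 0.0952), and Gfap was called within it (0.26 ± 0.047 SE, edgeR adjusted p = 0.0167), a call lost without Dp1Tyb replicate 2 (0.25). Of the 6 astrocyte genes 4 were above and 2 below 0. The latter were Gja1 (−0.080 ± 0.045 SE, edgeR adjusted p = 0.440) and Aldh1l1 (−0.0095 ± 0.047 SE, edgeR adjusted p = 0.947). Lists for choroid plexus (−1.65), blood (−0.42), meninges (−0.080), thalamus (−0.041) and oligodendrocytes (0.065) had adjusted p-values between 0.386 and 0.778 by the same exact permutation test. The size of these differences changed when single mice were left out: without Dp1Tyb replicate 4 they were −1.02 for choroid plexus, −0.27 for blood, −0.0097 for thalamus and 0.14 for oligodendrocytes. Choroid plexus was at −0.999 without Dp1Tyb replicate 1 and at −2.23 without WT replicate 2, and 2 of 5 Dp1Tyb mice lay below all WT mice in this list. Blood was at −0.27 without WT replicate 2 and oligodendrocytes at 0.0051 without WT replicate 4. Among the genes with the smallest p-values were Kl, Enpp2 and Aqp1 for choroid plexus, Dcn, Igf2 and Col1a2 for meninges, Hbb-bs, Hba-a2 and Hbb-bt for blood, Lef1, Rgs16 and Prkcd for thalamus and Mag and Mog for oligodendrocytes, with adjusted p from 0.161 (Lef1) to 0.636 (Mog) in edgeR. The part of these lists in the values of the 8 genes was not tested.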

How the data were processed

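RNA was taken from the whole hippocampus of 5 WT and 5 Dp1Tyb mice and sequenced as stranded poly(A) libraries. The authors trimmed adapters with Trim Galore, mapped reads to GRCm38 with TopHat (2.0.12), discarded reads with several alignments and counted reads per gene with htseq-count. The deposited table holds these counts, not normalized, with 18227684 to 43692270 per sample. The strand setting and the annotation release are not given in the sources used here. A table of normalized values and the authors' own comparison in DESeq2 (1.6.3), which holds mean levels, fold changes and p-values, were not used.

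Samples were grouped by genotype from their labels. Symbols, positions and exon lengths came from GENCODE M21 (GRCm38), to which 42462 of 43629 gene IDs matched. The 17237 genes kept by filterByExpr (minimum count 10) entered the quasi-likelihood F-test of edgeR 4.0.16 (R 4.3.3), with TMM factors, no covariates and Benjamini-Hochberg adjustment over all tested genes, and were called at an adjusted p under 0.05. Standard errors are those that give the test statistic, and 95% intervals use its degrees of freedom. CPM and RPKM were computed with the TMM factors, and log2 levels with a prior count of 2. Levels over samples were compared by exact two-sided permutation tests, whose smallest p is 0.00794. Alternatives were DESeq2 1.42.0, limma 3.58.1 (voom), other scaling, filters and prior counts, a block for replicate number, and leaving out each sample. The scripts were tested on simulated data. Named genes were the 8 factors, every called gene of each list or otherwise the 3 with the smallest p, the gene with the nearest start and overlapping genes, and the genes most like each factor between mice. Some genes that this rule names are not reported here. Others, such as Hmox1, Arnt2 and Nfe2l2, were named for their role. The 8 genes and the lists were chosen with earlier results of these data known. No 2 libraries agreed within sampling noise (smallest chi-square per degree of freedom 4.96 over 45 pairs). The labels name separate mice but no batch, so batch and genotype could not be separated.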

Additional observations from a re-analysis of the deposited data

Results flagged for a closer look

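In 46 groups of 5 samples, formed by the levels of the 7 tested factors, the 7 ratios and the 9 marker lists in each genotype, the gap between the outermost sample and its nearest neighbour was divided by the range of the 5. A gap over 0.71 of the range was found in 2 of them, and about 2.3 arise by chance. Dp1Tyb replicate 3 had the lowest microglial list, a mean log2 CPM of 4.29 against 4.64 to 4.69 in the other Dp1Tyb mice. Without this mouse the microglial list differed between the genotypes by −0.045, and the Runx1 to microglia ratio was 0.59 (exact permutation, adjusted p = 0.037). WT replicate 2 had the highest astrocyte list of the WT mice, 7.97 against 7.83 to 7.87.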

How the results depend on the processing

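The number of factors called was 5 in each of the 17 alternative fits, always Nrip1, Gabpa, Bach1, Ets2 and Zbtb21, with log2 fold changes from 0.49 to 0.74 over all of them. Erg was called in none of its 17 alternatives (log2 fold change −0.075 to 0.065, adjusted p from 0.775 to 0.999), and Runx1 in none of its 16 (0.42 to 0.60, adjusted p from 0.252 to 0.423). The sign of the Erg value changed with the replicate block (0.0068) and in leave-one-out fits. The total of called genes was 191, and 507 with DESeq2, and of the genes in the lists 3 were called, and 9 with DESeq2. Whether equal replicate numbers pair the mice was not settled. The correlation of same-numbered deviations ran from −0.069 to 0.28 with a mean of 0.12, and a best match to the own number occurred in 1 of 10 samples. With the replicate number as a block the totals were 315 and 5. Leaving out 1 mouse gave 105 to 218 called genes (WT replicate 4 or Dp1Tyb replicate 2 left out, 105; Dp1Tyb replicate 3, 111; WT replicate 5, 127) and 1 to 6 called genes in the lists (1 without Dp1Tyb replicate 2, 6 without Dp1Tyb replicate 5). The Gabpb1 fold change then ranged from −0.041 to 0.022. Differences from the segment that had exact permutation p-values of at least 0.587 changed sign. They ran from −0.0046 to 0.066 for Nrip1, −0.0033 to 0.059 for Gabpa, −0.048 to 0.018 for Bach1, −0.14 to 0.020 for Runx1 and −0.033 to 0.018 for Ets2. The Erg to endothelial ratio ran from 0.035 to 0.15, and the lists for meninges from −0.26 to 0.089, choroid plexus −2.23 to −0.999, blood −0.56 to −0.27, thalamus −0.071 to −0.0097, microglia −0.145 to −0.045 and oligodendrocytes 0.0051 to 0.14. The astrocyte list (0.071 to 0.11) and the neuronal list (0.080 to 0.11) passed correction without WT replicate 2, with an exact permutation adjusted p of 0.0357 for both. The correlation of Erg with the endothelial list ran from 0.44 to 0.85 (0.85 without Dp1Tyb replicate 4), and that of Runx1 with the microglial list from −0.14 (without Dp1Tyb replicate 3) to 0.52 (without WT replicate 1). The cause of these changes was not tested. RLE factors and the prior count changed none of the ratios, marker lists or differences from the segment in call or sign. Depth limits Runx1 and Sim2, as given with their counts.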

Other observations

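For each tested factor, the genes outside the segment that varied most like it between mice of the same genotype were listed by Pearson's r of log2 CPM deviations from the genotype means over the 10 mice, among 14913 genes of at least 1 CPM. With so many genes and 10 mice, high values are found for any gene, and the lists are a description with no p. They were Actr1b (0.94), Clcn7 (0.93) and Gramd1a (0.93) for Ets2, Oard1, Orc1 and Spice1 (0.92 to 0.90) for Gabpa, and Tmem81, Pecr and Cspg4 (0.93 to 0.92) for Erg. For Bach1 they were Timm29, Flot2 and Ddit4 (0.91 to 0.87), for Nrip1 Luzp1, Gemin5 and Camta1 (0.92 to 0.88), for Runx1 Rab11fip3, Srf and Ctif (0.92) and for Zbtb21 Acsl3, Rprd1a and Atp2b1 (0.95 to 0.94). None of these 21 genes was called between the genotypes. Over the 21 pairs of tested factors r ranged from −0.53 (Bach1 and Gabpa) to 0.64 (Erg and Runx1).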
